A study of Mus musculus with 29 samples.

Results

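Glucocorticoid hormones act through a nuclear receptor that binds DNA, and a small group of genes is induced by it in most tissues. The 9 such genes described here, Fkbp5, Zbtb16, Tsc22d3, Sgk1, Klf9, Pdk4, Errfi1, Cdkn1a and Fam107a, were chosen by name as genes known to be induced by glucocorticoids, with results of the comparison of sclerostin antibody with vehicle in the same libraries known. They are 9 of 51456 gene symbols measured, and all 9 passed the filter on low values, which left 13510 genes for testing.

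The aortic arch of male C57BL/6 mice was sequenced in a cardiovascular safety study of an antibody against sclerostin (Scl-Ab), a secreted inhibitor of Wnt signalling that the bone drug romosozumab also targets. The Scl-Ab group (10 libraries, numbers 10 to 19) consisted of mice without apolipoprotein E in any cell (ApoE KO) that received angiotensin II (AngII) from a subcutaneous pump, filled at 15.27 mg/mL and releasing 0.11 µL/hr, and Scl-Ab at 10 mg/kg once a week for 4 weeks. The vehicle group (9 libraries, numbers 1 to 9) was ApoE KO with the same AngII pump and vehicle injections. The WT group (10 libraries, numbers 20 to 29) had neither the deletion nor AngII and was given vehicle in the pump and in the injections. All 3 groups are labelled as 14 weeks of age. ApoE deletion and AngII differ together between either ApoE KO group and WT, so their parts cannot be told apart. The labels' protocols give 9 WT mice against 10 WT libraries, and n therefore counts libraries.

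Unbound, the glucocorticoid receptor is held in the cytoplasm by the chaperone HSP90 and its partners, and the hormone releases it to the nucleus, where it binds paired short elements in DNA. Blood levels of the hormone follow the day and rise with stress, and the genes it induces include brakes on the receptor itself, brakes on inflammation, and switches of fuel use and growth. In arteries the receptor is present in smooth muscle, endothelium and macrophages.

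Values are per gene length, scaled by the authors so that an upper quantile is alike in all libraries (FPKM-like). Summed values over all genes ran between 496126 and 678907, and 31.7 to 43.6 sequenced fragments lay behind a value of 1 for genes 2 kb long. Libraries Scl-Ab 10 and, to a lesser degree, WT 20, 21 and 23 stood apart from their groups in several of the genes described here. Spread and covariation within a group are given with and without these libraries, and each library was left out in turn in the tests. Apoe, the deleted gene, was 8.39 ± 2.79 in Scl-Ab, 6.71 ± 1.70 in vehicle and 264 ± 65.0 in WT (SD, n = 10, 9 and 10), with no overlap between either ApoE KO group and WT; WT 20 and WT 21 were the lowest of WT at 176 and 146. Contractile smooth muscle markers, which define the tissue, summed to between 6851 and 16477 in Scl-Ab, 6050 and 19629 in vehicle, and 22349 and 26084 in WT, with no marker at 0. Macrophage markers summed to between 898 and 2135 in Scl-Ab, 1115 and 3317 in vehicle, and 125 and 411 in WT. In tissue RNA of this kind, fewer cells of a type and less RNA per cell cannot be told apart. Of 10 skeletal muscle and 10 lymphocyte markers, 6 of each list stayed below 1 in every library.

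The lowest value of any of the 9 genes was 1.248, for Fam107a in Scl-Ab 19, which corresponded to about 95.9 fragments. None of the exons overlapped those of another gene, except that Cdkn1a overlaps an opposite-strand gene model, and whether counting used strand is not given in the labels.

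Promoter windows were read for the genes because the receptor's own DNA element can be searched by its letters. RefSeq windows (GRCm38.p6, 250 bases before to 50 after a transcript start) were found for 8 of the 9 genes, 19 windows in all, and there was none for Zbtb16. The letters searched, on both strands, were the receptor's 6-base element AGAACA, the palindromic element (AGAACA, any 3 bases, then TGTTCT, so that each palindrome also counts as 6-base elements), the clock factors' E-box CACGTG and the CREB element TGACGTCA. The palindromic element occurred in 3 of 32851 windows of this length (0.00913%), and 1 of these 3 was a window of Sgk1, at bases -189 to -175 from that start. The 6-base element was in 6 of the 19 windows, those of Fam107a, Sgk1 and Tsc22d3, and in 18.97% of all windows. The Fam107a windows counted overlap almost wholly and hold the same matches, and the Sgk1 windows include the one with the palindrome. The 6 are therefore not separate, and no excess is read from them. The E-box was in a window of Fkbp5 and of Sgk1 and in 7.15% of all windows, and the CREB element was in a window of Errfi1 and in 1.79% of all windows. The 2 windows printed are the one that holds the palindromic element and that of Fkbp5, the gene against which the others are compared further on. Capitals mark matches to the letters searched. In the Sgk1 window the E-box runs into a 6-base element, and the palindrome follows further along.
Sgk1, chr10:21993640-21993939, plus strand: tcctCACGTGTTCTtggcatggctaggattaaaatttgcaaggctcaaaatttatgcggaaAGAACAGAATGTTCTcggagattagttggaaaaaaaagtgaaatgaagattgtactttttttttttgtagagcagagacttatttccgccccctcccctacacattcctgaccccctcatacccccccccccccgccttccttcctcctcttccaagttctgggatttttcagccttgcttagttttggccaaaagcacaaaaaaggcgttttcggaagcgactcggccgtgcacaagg
Fkbp5, chr17:28486100-28486399, minus strand: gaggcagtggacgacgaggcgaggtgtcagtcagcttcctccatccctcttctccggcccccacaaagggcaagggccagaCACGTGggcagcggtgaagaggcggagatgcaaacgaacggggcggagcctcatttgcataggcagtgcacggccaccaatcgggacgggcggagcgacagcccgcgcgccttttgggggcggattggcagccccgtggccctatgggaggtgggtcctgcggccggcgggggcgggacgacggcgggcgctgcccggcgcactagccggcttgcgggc

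Fkbp5 (chr17:28399094-28517527, minus strand) encodes FKBP51, an HSP90 partner that lowers the receptor's affinity for hormone. Its values had a lowest, median and highest of 8.23, 11.4 and 157 in Scl-Ab, 18.6, 83.5 and 129 in vehicle, and 6.94, 10.7 and 123 in WT. Means were 26.3 ± 46.1 in Scl-Ab, 74.2 ± 37.9 in vehicle and 30.7 ± 39.4 in WT (SD, n = 10, 9 and 10). In Scl-Ab, 9 libraries lay between 8.23 and 15.5, below every vehicle library, and library 10 lay above all of them at 157. In WT, 7 libraries lay between 6.94 and 12.5, and libraries 20, 21 and 23 stood at 123, 79.3 and 37.0. The gene was thus low in most libraries of Scl-Ab and WT, and high in most of vehicle. Without the libraries that stood apart its mean was 11.8 ± 2.30 in Scl-Ab (SD, n = 9) and 9.66 ± 1.81 in WT (SD, n = 7).

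Tsc22d3 (chrX:140539528-140600659, minus strand) encodes GILZ, a leucine zipper protein that dampens inflammatory transcription. Lowest, median and highest were 13.8, 28.98 and 147 in Scl-Ab, 23.5, 70.4 and 141 in vehicle, and 11.6, 19.2 and 59.8 in WT. Scl-Ab 10 and WT 20 were again the highest of their groups. Here the groups overlapped more: 3 Scl-Ab libraries were below the lowest vehicle library, against 8 WT libraries.

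Zbtb16 (chr9:48654297-48836222, minus strand) encodes PLZF, a zinc finger repressor of transcription. Its lowest, median and highest values were 2.75, 4.43 and 44.8 in Scl-Ab, 10.1, 31.2 and 38.4 in vehicle, and 2.99, 5.67 and 39.1 in WT. As for Fkbp5, 9 Scl-Ab libraries and 7 WT libraries were below every vehicle library, and the libraries above were Scl-Ab 10 and WT 20, 21 and 23. Klf9 (chr19:23141226-23168134, plus strand), a Krüppel-like transcription factor, varied less, with 12.1, 38.7 and 91.0 in Scl-Ab, 49.4, 57.2 and 72.0 in vehicle, and 35.4, 41.6 and 50.7 in WT. The lowest Scl-Ab value of Klf9 was in library 17 and the highest in library 10, while the other 8 lay between 27.1 and 49.3.

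Sgk1 (chr10:21882184-21999903, plus strand) encodes a kinase that acts on ion channels and is also induced by mineralocorticoids. Its values were 33.4, 46.5 and 85.9 in Scl-Ab (lowest, median, highest), 41.5, 67.3 and 116 in vehicle, and 23.3, 37.9 and 52.1 in WT. Scl-Ab 10 was highest of its group but close to Scl-Ab 19 at 73.4, and the 3 groups overlapped. Pdk4 (chr6:5483351-5496309, minus strand) encodes a kinase that switches off pyruvate dehydrogenase and so spares glucose. Pdk4 ran through 10.1, 32.6 and 112 in Scl-Ab, 18.3, 62.7 and 232 in vehicle, and 21.5, 23.8 and 44.5 in WT. It had the widest log2 SD of the 9 genes in Scl-Ab, at 1.27, but an SD of 0.33 in WT, and its highest WT libraries were 28, 23 and 29.

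Errfi1 (chr4:150853919-150868892, plus strand) encodes MIG6, a feedback inhibitor of the EGF receptor. Its lowest, median and highest were 11.3, 18.8 and 75.3 in Scl-Ab, 16.7, 64.8 and 214 in vehicle, and 14.9, 20.3 and 142 in WT. Vehicle itself was split, with libraries 1, 2, 6 and 9 between 166 and 214 and the other 5 between 16.7 and 64.8. Cdkn1a (chr17:29090976-29100727, plus strand) encodes p21, an inhibitor of cyclin-dependent kinases that p53 also induces. Cdkn1a had 26.7, 37.1 and 82.4 in Scl-Ab, 49.1, 79.4 and 155 in vehicle, and 15.6, 29.04 and 159 in WT. WT 20, the highest of all 29 libraries for Cdkn1a, was followed in its group by WT 21 at 100.4 and WT 22 at 47.4.

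Fam107a (chr14:8296274-8318023, minus strand) encodes DRR1, an actin-associated protein known as a stress-induced gene in brain. Lowest, median and highest were 1.248, 2.34 and 29.2 in Scl-Ab, 4.72, 12.6 and 26.2 in vehicle, and 5.52, 9.14 and 71.6 in WT. Here WT was not low: as for Pdk4, no WT library was below the lowest vehicle library, and, for Fam107a, all 10 WT libraries were above the 9 Scl-Ab libraries other than number 10. Those 9 lay between 1.248 and 2.78.

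**Figure D1:**
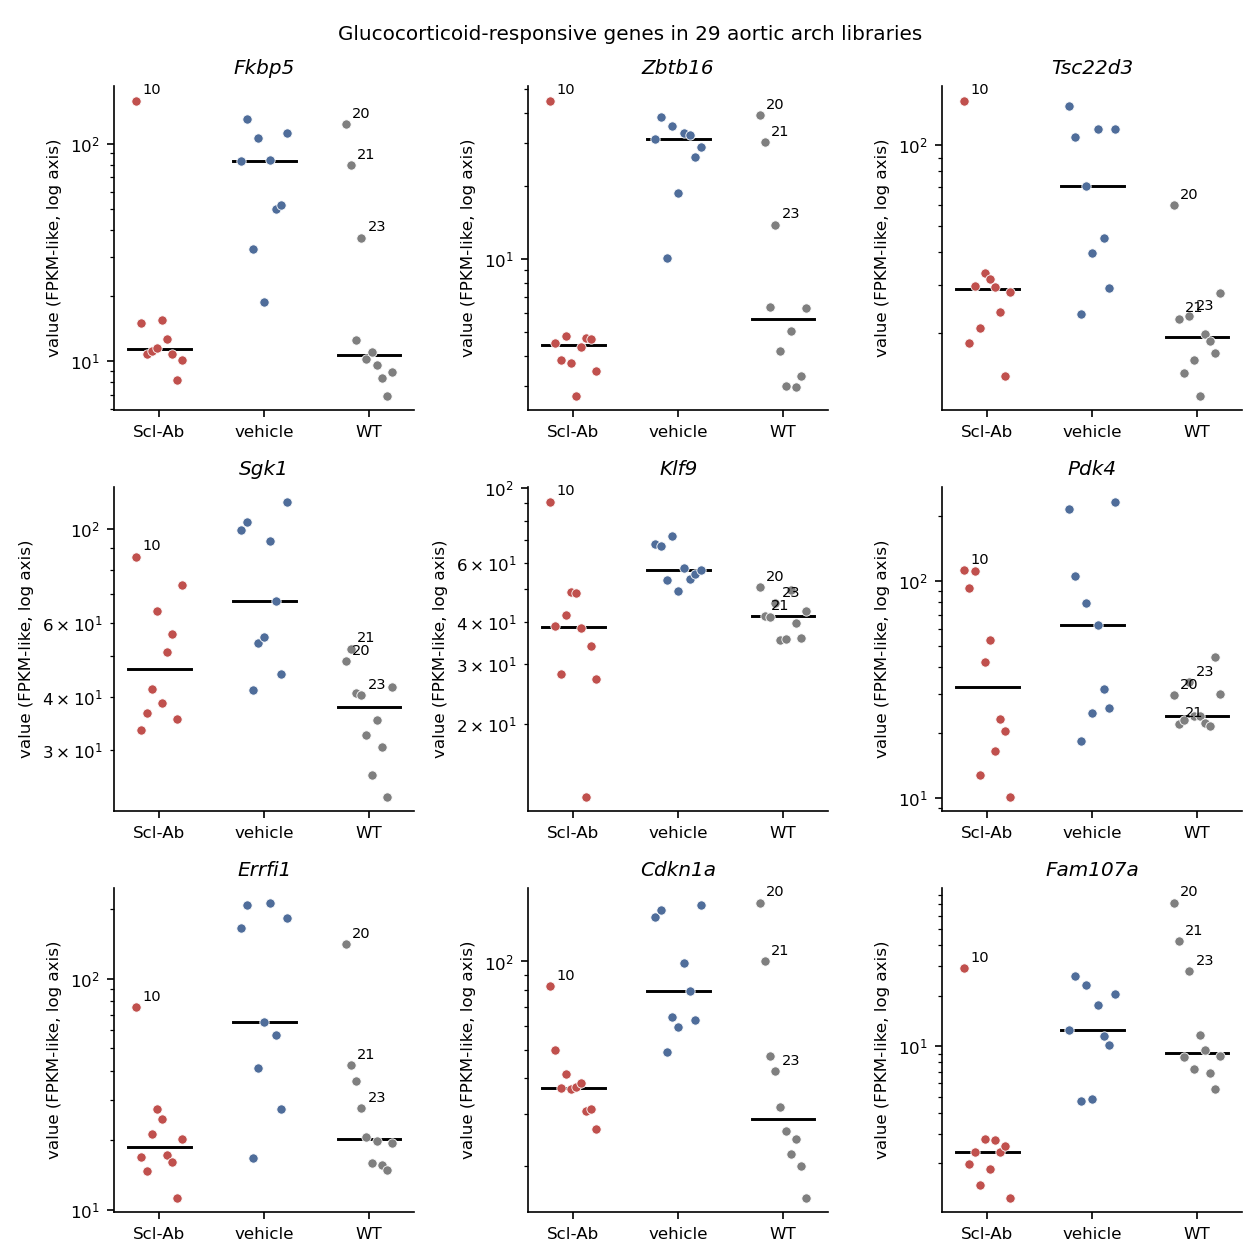
Value of each of the 9 genes (FPKM-like, log axis) in the libraries of Scl-Ab, vehicle and WT; points are libraries, bars are group medians, and numbers name Scl-Ab 10 and WT 20, 21 and 23. Scl-Ab 10 is the highest point of its group in all 9 panels, and for Fkbp5, Zbtb16, Klf9 and Fam107a the other 9 Scl-Ab libraries are below every vehicle library.

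Whether the genes differ in the disease model was tested on the mean of all 19 ApoE KO AngII libraries against WT, a contrast that does not draw on the difference between Scl-Ab and vehicle by which the genes were known. Sgk1 and Tsc22d3 rose, Fam107a fell, and the other 6 genes did not pass (limma, adjusted p under 0.05 over 13510 genes). By the same rule 23.4% of all tested genes were higher and 34.7% lower, so 2 higher and 1 lower of 9 is no more than the background share. On the log2(value + 1) scale, which every fold below uses, Sgk1 was 1.597-fold higher (log2 0.68 ± 0.17 SE, adjusted p = 0.00156) and Tsc22d3 2.01-fold higher (log2 1.01 ± 0.31 SE, adjusted p = 0.00645). Both calls held in all 36 alternative settings in which the contrast could be fitted. No setting took smooth muscle or macrophage markers as a covariate, and the part of these cell types in the calls was not tested. Fam107a stood at 0.478-fold of WT (log2 -1.07 ± 0.39 SE, adjusted p = 0.0204), and the call was lost without WT 20 (log2 -0.81, adjusted p = 0.0611) or without WT 21 (log2 -0.89, adjusted p = 0.0539). By group, Fam107a differed from WT by log2 -0.11 in vehicle (adjusted p = 0.852) and log2 -1.92 in Scl-Ab (adjusted p = 0.000677). The fall of its mean thus lay in the Scl-Ab libraries, by which the gene was known to be low, and is not read as a trait of the model. Cdkn1a came next (log2 0.62 ± 0.28 SE, adjusted p = 0.0567) and passed in 8 of the 36 settings, among them without WT 20 (adjusted p = 0.00405) and without WT 21 (adjusted p = 0.0167). Fkbp5 (log2 0.74, adjusted p = 0.157) and Zbtb16 (log2 0.56, adjusted p = 0.190) passed only without WT 20, with log2 1.04 (adjusted p = 0.0352) and log2 0.81 (adjusted p = 0.0470). Pdk4, Errfi1 and Klf9 had log2 differences of 0.74, 0.54 and 0.14, with adjusted p of 0.113, 0.231 and 0.481, and passed in no setting.

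On its own, vehicle was higher than WT in 8 of the 9 genes, against 22.7% of all tested genes called higher and 53.7% called in either direction. This comparison shares the vehicle libraries with the one by which the genes were known, and the WT libraries with the others. The 8 calls are therefore no independent support for high values of the 9 genes in vehicle. Fkbp5 was 3.46-fold higher (log2 1.79 ± 0.52 SE, adjusted p = 0.00511), Zbtb16 3.22-fold (adjusted p = 0.00173), Tsc22d3 2.99-fold (adjusted p = 0.000587) and Errfi1 2.83-fold (adjusted p = 0.00635). Smaller differences were those of Cdkn1a at 2.34-fold (adjusted p = 0.00256), Pdk4 at 2.20-fold (adjusted p = 0.0420), Sgk1 at 1.92-fold (adjusted p = 0.000325) and Klf9 at 1.41-fold (adjusted p = 0.0363). Fam107a did not pass (log2 -0.11 ± 0.46 SE, adjusted p = 0.852), with a 95% confidence interval of -1.05 to 0.82. The calls of Klf9 and Pdk4 were the weakest: that of Klf9 was lost without any one of vehicle 1, 2 or 4 or WT 24, 25 or 28 (adjusted p up to 0.0627), and that of Pdk4 without any one of 12 libraries (up to 0.101). With the clock index described below as a covariate, the calls that held were Sgk1 (log2 0.72, adjusted p = 0.0137) and Tsc22d3 (log2 1.33, adjusted p = 0.0131). In that setting 2367 of 13510 tested genes were called higher. The other 6 genes of the set kept their sign but did not pass. Fkbp5 then stood at log2 1.17 (adjusted p = 0.107), Zbtb16 at 1.05 (0.0704), Pdk4 at 0.996 (0.152), Errfi1 at 0.61 (0.267), Cdkn1a at 0.48 (0.185) and Klf9 at 0.40 (0.171).

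Against WT, Scl-Ab was lower for Fam107a, at 0.264-fold (log2 -1.92 ± 0.44 SE, adjusted p = 0.000677), and the other 8 genes did not pass, against 19.8% of all tested genes called higher and 30.5% called lower. This comparison uses the same Scl-Ab libraries by which the genes were known to be low, so the value of Fam107a is no independent support for that. Sgk1 was nearest among the rest (log2 0.43 ± 0.20 SE, adjusted p = 0.0689) and passed in 6 of 37 settings, including without Scl-Ab 11, Scl-Ab 18 or WT 21, which gave adjusted p between 0.0443 and 0.0473. For Fkbp5 the log2 difference was -0.21 with a 95% confidence interval of -1.25 to 0.83, and for Zbtb16 it was -0.45 with an interval of -1.31 to 0.42, so neither a rise nor a fall was settled for these genes.

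**Figure D2:**
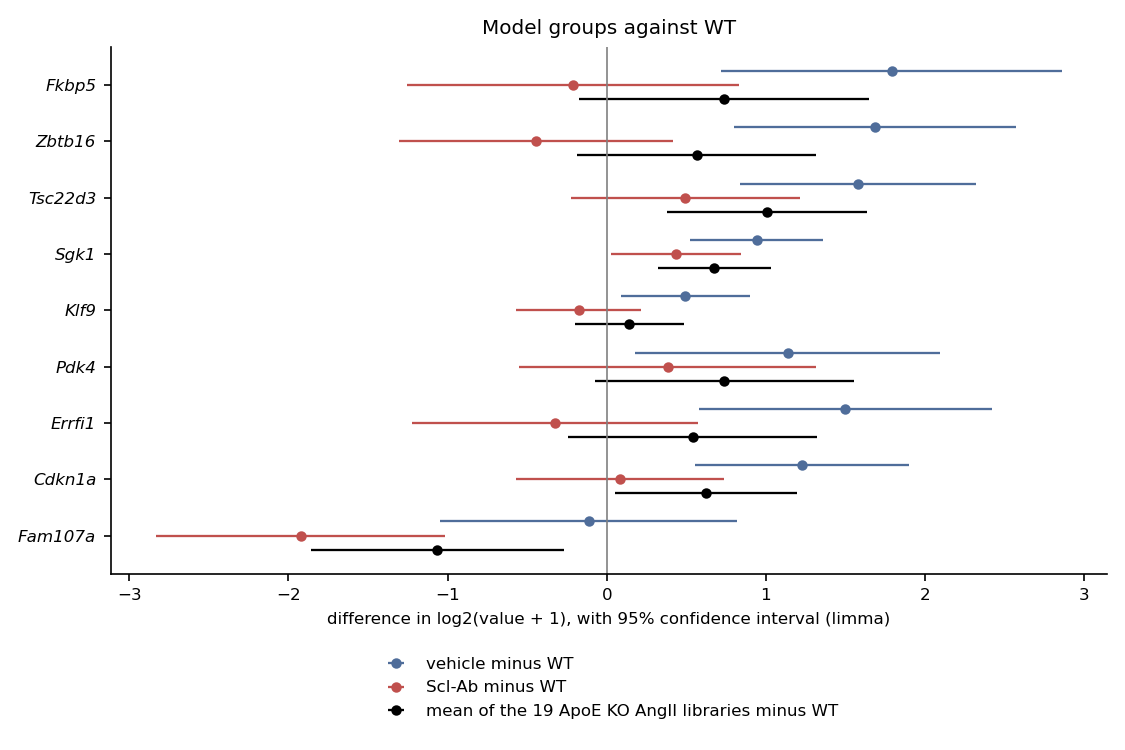
Differences in log2(value + 1) of vehicle minus WT, Scl-Ab minus WT and the mean of the 19 ApoE KO AngII libraries minus WT, for each of the 9 genes; points are limma estimates and lines are 95% confidence intervals. The vehicle interval excludes 0 for all genes but Fam107a, and the Scl-Ab interval is wholly below 0 for Fam107a and, before adjustment, above 0 for Sgk1.

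The difference between Scl-Ab and vehicle is given as a description, since it is how the genes came to be known. Scl-Ab stood at 0.250-fold of vehicle for Fkbp5, 0.228 for Zbtb16, 0.282 for Errfi1 and 0.285 for Fam107a. It stood at 0.452-fold for Cdkn1a, 0.471 for Tsc22d3, 0.593 for Pdk4, 0.629 for Klf9 and 0.703 for Sgk1. All 9 differences are negative in every setting tried, those that leave out a library or rescale included. Their size did not always hold. With the clock index described below as a covariate, Cdkn1a moved from log2 -1.14 to -0.17 and Errfi1 from log2 -1.83 to -0.66. By the fit over all genes 6 of the 9 were called lower and none higher, beside 4.80% of tested genes called lower and 2.64% called higher, and nothing is read from the 6. Of all calls between these groups 35.4% were higher in Scl-Ab with values as deposited, 45.6% with scaling by a trimmed mean of log ratios and 65.4% with equal totals per library.

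Leaving out Scl-Ab 10, the mean of Fkbp5 in Scl-Ab was 11.8 ± 2.30, that of Zbtb16 4.10 ± 0.704 and that of Fam107a 2.14 ± 0.541 (SD, n = 9). All 9 remaining Scl-Ab libraries were then below all vehicle libraries for Fkbp5, Zbtb16, Klf9 and Fam107a, as for 0.303% of tested genes (41 of 13510). Library 10 was set aside for its values in these genes, which were known from this comparison, so nothing is read from that share. For Klf9 the gap was small, with the highest of the 9 at 49.27 and the lowest vehicle library at 49.35. Endothelial markers summed to between 170 and 373 in Scl-Ab, 299.8 and 426 in vehicle, and 184 and 298 in WT, and heart muscle markers to between 59.8 and 1141 in Scl-Ab, 37.6 and 548 in vehicle, and 35.9 and 530 in WT. The part of these cell types in the differences was not tested.

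Library 10 of Scl-Ab was singled out from the values of the 9 genes, for all of which it was the highest of its group. Outside the set it was the highest for 20 of 32 other tested genes known to be induced by glucocorticoids (62.5%), a list also chosen with earlier results known, for 2 of 17 clock genes, for 1 of 20 immediate early genes and for 8.06% of all tested genes. These counts are a description of that library. Its values reached the range of vehicle or passed it, as for Fkbp5 at 157 against a vehicle maximum of 129. Its summed markers were 6508 for adipocytes, 352 for endothelium, 11790 for smooth muscle and 1209 for macrophages, within the range of the other Scl-Ab libraries, and its heart muscle markers, at 1141, were the highest of all 29 libraries. The part of heart tissue in its values was not tested.

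**Figure D3:**
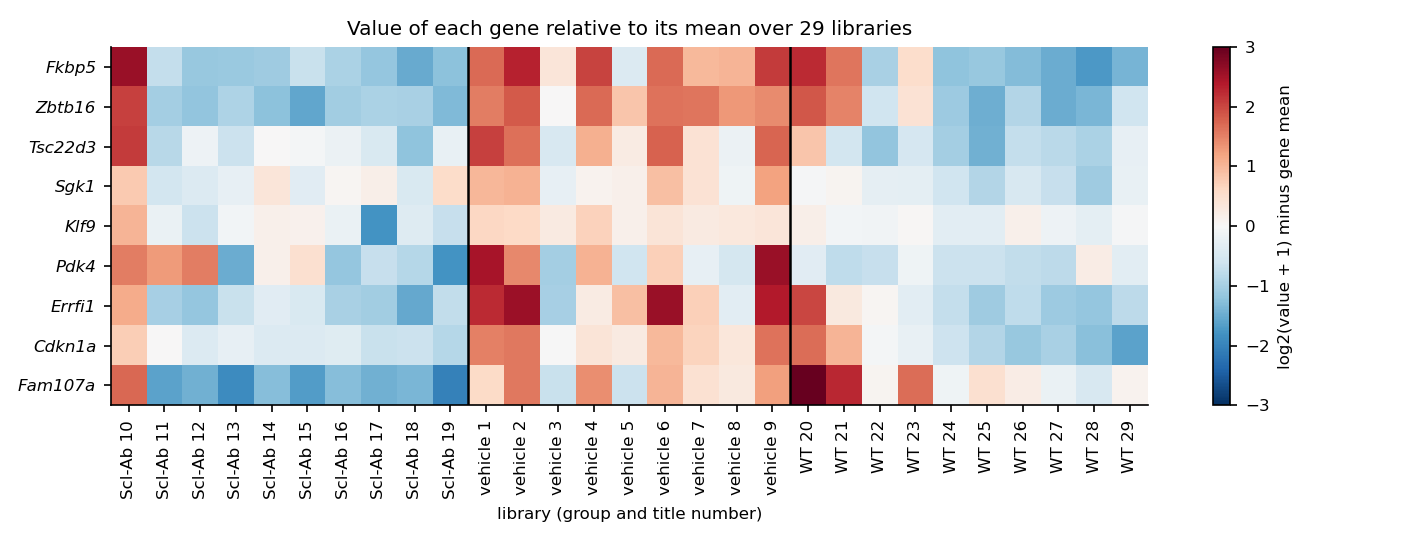
The log2(value + 1) of each gene minus that gene's mean over 29 libraries, with libraries in columns (Scl-Ab, vehicle, WT) and genes in rows. Scl-Ab 10 and WT 20 have the colours of the high vehicle libraries in most rows. Vehicle 3 has those of a low library for Tsc22d3, Pdk4 and Errfi1.

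Within groups the 9 genes moved together from library to library. After each group's mean was removed, Pearson's r between pairs of the 9 genes had a median of 0.623 over 36 pairs and 29 libraries (0.248 to 0.966), against -0.0287 between the 9 genes and the other tested genes. The points share library and depth, and no test was made. Fkbp5 was closest to Fam107a (r = 0.97) and Zbtb16 (r = 0.93), and furthest from Pdk4 (r = 0.45) and Klf9 (r = 0.54). Sgk1 with Klf9 was the loosest pair, while Errfi1 went with Tsc22d3 (r = 0.86), Cdkn1a (r = 0.83) and Sgk1 (r = 0.82). The median was 0.741 in vehicle alone. In Scl-Ab it was 0.708 with library 10 and 0.130 without it, and in WT it was 0.711 with all 10 libraries and 0.215 without libraries 20, 21 and 23, so in both groups it rests on the libraries that stood apart.

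The amount of variation was also high. In WT the SD of log2 values was 1.42 for Fkbp5, 1.22 for Zbtb16 and 1.18 for Fam107a, against a median of 0.139 over tested genes, and 8 of the 9 genes were at or above the 90th percentile. Without libraries 20, 21 and 23 these SDs were 0.25, 0.39 and 0.31, against a median of 0.125, and 7 of 9 were at or above it. In vehicle 8 of 9 were as well, led by Errfi1 at 1.35 and Pdk4 at 1.34, against a median of 0.199. Without library 10 this held in Scl-Ab for 2 of 9, with 1.198 for Pdk4 and 0.60 for Klf9, while Fkbp5 at 0.26 and Zbtb16 at 0.21 were near the median of 0.232.

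Over tested genes with an assigned symbol and a mean value of at least 1, those whose group-centred values followed Fkbp5 most closely over the 29 libraries were Fam107a (r = 0.97), Map3k6 (0.93), Zbtb16 (0.93), Tnfrsf21 (0.92), Limd1 (0.90), Bcl2l1 (0.90), Foxo3 (0.89), Klf15 (0.88), Cdc37l1 (0.88) and Stc2 (0.88). Of 11972 genes outside the set, 3.18% had r above 0.5. Map3k6 had means of 8.87 ± 6.56 in Scl-Ab, 14.6 ± 6.51 in vehicle and 10.05 ± 5.81 in WT, and Bcl2l1, an inhibitor of apoptosis, 30.3 ± 12.3 in Scl-Ab, 53.2 ± 15.9 in vehicle and 35.8 ± 18.2 in WT (SD, n = 10, 9 and 10). In library 10 of Scl-Ab, Fkbp5 is far above the rest of the group. Over the 28 libraries without it, r with the 10 genes named ran between 0.83 for Stc2 and 0.95 for Fam107a. In WT without libraries 20, 21 and 23, r was 0.71 with Fam107a and 0.42 with Zbtb16, against 0.99 and 0.97 in all 10. Within Scl-Ab the likeness rests in large part on library 10. In the Scl-Ab libraries without number 10 the r of Fkbp5 with these 10 genes ran between -0.41 for Zbtb16 and 0.60 for Klf15, with -0.08 for Fam107a, 0.55 for Limd1 and 0.35 for both Stc2 and Tnfrsf21, while it was 0.67 with Cdkn1a and 0.54 with Errfi1.

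The list of other glucocorticoid-induced genes followed Fkbp5 in part. Of its 32 tested genes 17 had r above 0.5 (53.1%), with a median of 0.54, among them Map3k6 and Foxo3 from the leading 10 and Hif3a (0.82), Mt2 (0.81), Foxo1 (0.79) and Mt1 (0.76). The receptor, its chaperones and its cofactors did not share the pattern, with a median r of -0.21 and 1 of 18 above 0.5. For Nr3c1, which encodes the receptor, r with Fkbp5 was -0.51. The 7 genes of corticosteroid metabolism and transport had a median r of -0.05 and none above 0.5, and the 17 clock genes a median of -0.23 with 2 above 0.5.

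**Figure D4:**
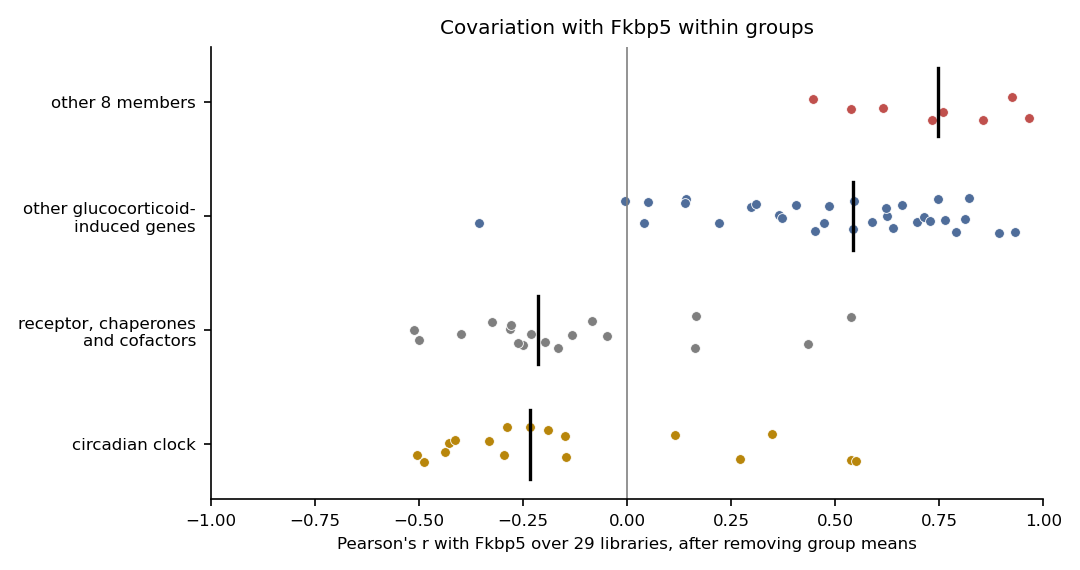
Pearson's r with Fkbp5 over 29 libraries after removal of group means, by gene list; points are genes and bars are list medians. The other 8 genes of the set and most of the other glucocorticoid-induced genes are right of 0, and most receptor, chaperone, cofactor and clock genes are left of it.

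The clock is given beside these results because hormone level and clock genes both follow the time of day. A clock index was taken as the mean log2 value of 8 genes of the output phase (Dbp, Per3, Hlf, Tef, Nr1d1, Nr1d2, Ciart, Per2) minus that of 4 genes of the opposite phase (Arntl, Npas2, Clock, Cry1). It averaged 3.06 ± 0.52 in Scl-Ab, 0.97 ± 1.14 in vehicle and 2.56 ± 1.39 in WT (SD, n = 10, 9 and 10). Vehicle had the lowest mean, and its range, -0.95 to 2.55, overlapped those of Scl-Ab and WT. The part of the clock in the differences of the 9 genes was not tested beyond the covariate. With the index as a covariate 3 genes were called between Scl-Ab and vehicle, against 1005 without it, and none of the 9.

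Single libraries did not all line up. Scl-Ab 10 had an index of 2.73 and a Fkbp5 value of 157, while the other Scl-Ab libraries had between 1.96 and 3.73 with Fkbp5 no higher than 15.5. Vehicle 5 had the lowest index of all, -0.95, with the lowest vehicle value of Fkbp5 (18.6), and vehicle 4 had an index of 2.55 with Fkbp5 at 106. WT 22 had an index of 0.26 with Fkbp5 at 12.5, and WT 20, 21 and 23 had 0.81, 1.23 and 2.38. Apart from WT 22, the index in WT rose with library number, up to 4.13 in WT 29. The WT libraries highest for Fkbp5 have low numbers, and Cdkn1a ran from 159 in WT 20 to 15.6 in WT 29. The part of this order in the relation below was not tested. Within WT, Fkbp5 and the index had r = -0.68 (permutation p = 0.0410, adjusted 0.0820 over 6 relations) and rho = -0.88 (permutation p = 0.00168, adjusted 0.00732), and r was -0.88 without the 2 libraries farthest from the median index. In Scl-Ab r was -0.32 (permutation p = 0.321, rho = -0.47 with p = 0.176), and -0.73 without the 2 farthest. In vehicle r was 0.26 (permutation p = 0.505, rho = 0.18 with p = 0.648) and turned to -0.68 without the 2 farthest, so no relation is stated there.

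Pdk4 followed another measure. Its values rose with the mean log2 level of 15 adipocyte markers in Scl-Ab (r = 0.93, permutation p = 0.00024, adjusted 0.00138; rho = 0.87, permutation p = 0.00244) and in vehicle (r = 0.95, permutation p = 0.00046, adjusted 0.00138; rho = 0.87, permutation p = 0.00412). Without the 2 farthest libraries r was 0.91 in Scl-Ab and 0.89 in vehicle. In WT r was 0.29 (permutation p = 0.416; rho = 0.47, permutation p = 0.179), and 0.77 without the 2 farthest. Adipocyte markers summed to between 1266 and 10895 in Scl-Ab, 918 and 14092 in vehicle, and 527 and 3771 in WT, with none of the markers at 0, and the labels' protocols say that fat was scraped from the vessel. With the marker level as a covariate, the Pdk4 call of vehicle against WT was lost (log2 0.60, adjusted p = 0.0702, against log2 1.14 without it).

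**Figure D5:**
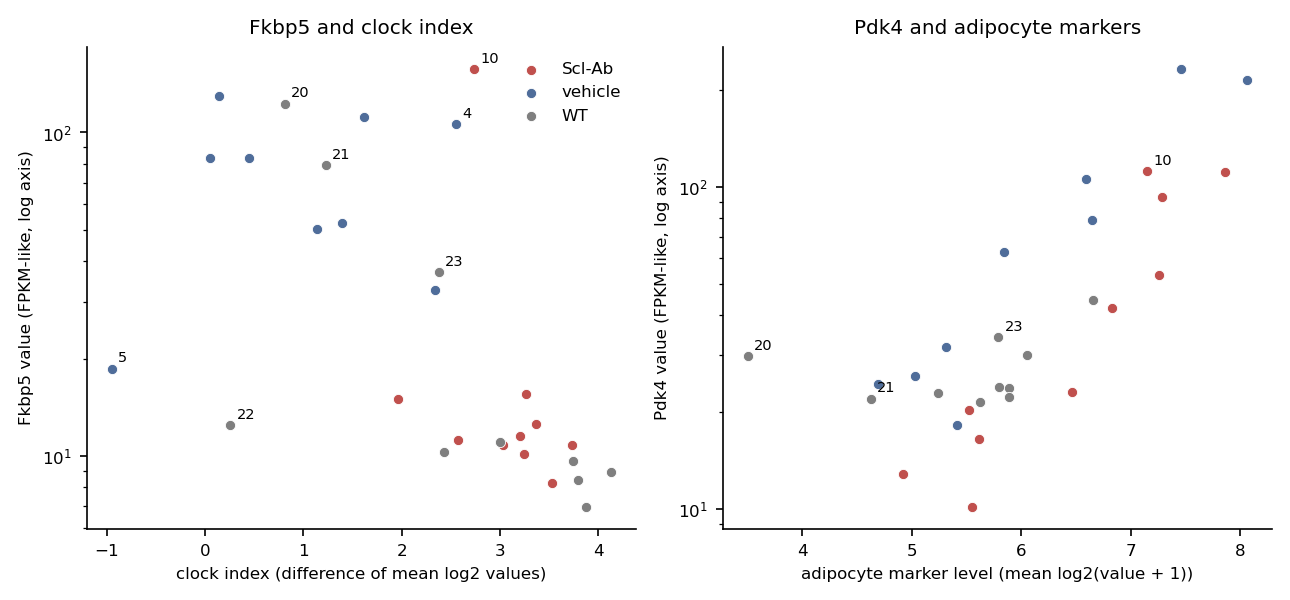
Left, the Fkbp5 value (FPKM-like, log axis) against the clock index, a difference of mean log2 values; right, the Pdk4 value (FPKM-like, log axis) against the mean log2 level of adipocyte markers. Each point is a library of Scl-Ab, vehicle or WT, and numbers name single libraries; Scl-Ab 10 and vehicle 4 sit high for Fkbp5 at an index above 2, and Pdk4 climbs with the markers in both ApoE KO groups.

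The other genes of the pathway were taken as lists chosen with earlier results of these data known. Of the 32 other glucocorticoid-induced genes, 12 rose and 2 fell in the mean of the ApoE KO libraries against WT. These are 37.5% and 6.25%, against 23.4% and 34.7% of all tested genes. The median log2 difference was 0.40 against -0.05 over all tested genes. Lcn2, an iron-binding protein of the acute phase that inflammation also induces, rose 12.98-fold (adjusted p = 5.01e-12), Pik3r1 1.65-fold and Anxa1, an anti-inflammatory annexin, 1.43-fold, while Dusp1, a phosphatase that ends MAP kinase signals, fell to 0.623-fold (adjusted p = 0.00110). Vehicle against WT gave 15 higher and 2 lower (46.9% higher, against 22.7% of all tested genes). Scl-Ab against WT gave 6 higher and 4 lower (18.75% and 12.5%). All tested genes gave 19.8% and 30.5% there, so these 10 calls are no more than the background share. Between Scl-Ab and vehicle the median log2 difference was -0.32 against -0.01 over all tested genes. There 15 of 32 had an unadjusted p under 0.05, and after adjustment 3 fell and none rose (9.4% lower, against 4.80% of all tested genes). These were Foxo1 at 0.663-fold (10.4 ± 1.95 in Scl-Ab and 16.1 ± 2.60 in vehicle, adjusted p = 0.00250), Foxo3 at 0.653-fold (adjusted p = 0.0192) and Nfkbia, the inhibitor of NF-kappaB, at 0.566-fold (35.9 ± 10.2 in Scl-Ab and 71.2 ± 38.1 in vehicle, adjusted p = 0.0395). Per1, a clock gene that the receptor also induces, had 21.04 ± 10.2 in Scl-Ab, 20.8 ± 9.89 in vehicle and 20.7 ± 8.45 in WT.

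Nr3c1 itself had 23.9 ± 4.20 in Scl-Ab, 22.4 ± 4.07 in vehicle and 25.5 ± 3.10 in WT, and did not pass between Scl-Ab and vehicle (log2 0.08, 95% confidence interval -0.13 to 0.30) or between vehicle and WT (log2 -0.19, interval -0.41 to 0.03). Among the 18 genes of the receptor, its chaperones and its cofactors, none rose and 6 fell (33.3%, against 34.7% of all tested genes) in the mean of the ApoE KO libraries against WT, led by Fkbp4, the HSP90 partner that opposes FKBP51, at 0.651-fold (adjusted p = 2.44e-09), and Ptges3, which encodes the chaperone p23, at 0.778-fold. Between Scl-Ab and vehicle only Ep300, a coactivator, was called, 1.12-fold higher (adjusted p = 0.0469). Of 7 genes of corticosteroid metabolism and transport 4 rose and 1 fell against WT (57.1% and 14.3%, against 23.4% and 34.7% of all tested genes). Among them were Hsd11b1, which regenerates active hormone inside cells, at 1.45-fold (28.8 ± 9.67 in Scl-Ab, 30.02 ± 7.70 in vehicle and 19.8 ± 6.10 in WT, adjusted p = 0.00649), and Nr3c2, the mineralocorticoid receptor, at 0.764-fold. None of the 7 was called between Scl-Ab and vehicle, where 1 had an unadjusted p under 0.05.

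Lists that surround single genes of the set gave the following counts for the mean of the ApoE KO libraries against WT, in which 23.4% of all tested genes were called higher and 34.7% lower. Around Errfi1, 10 of 17 genes of EGF receptor signalling and ERK feedback rose and 2 fell, with the ligands Ereg at 2.95-fold and Btc at 0.525-fold. Around Cdkn1a, 9 of 15 other p53 targets rose and 2 fell, with Pmaip1, a BH3-only death factor, at 2.11-fold and Gdf15 at 1.76-fold. Around Pdk4, 1 of 16 fasting and PPAR targets rose, the lipid droplet gene Plin2 at 2.24-fold, and 3 fell, with Pdk3, a paralogue of Pdk4, at 0.697-fold. Around Sgk1, 1 of 11 relatives and partners rose (Sgk3, 1.18-fold) and 3 fell, with Tsc22d1, a paralogue of Tsc22d3, at 0.515-fold. Of 20 immediate early genes 5 rose and 3 fell, with Egr2 at 2.62-fold and Nr4a1 at 0.365-fold, and of 17 clock genes 1 rose (Bhlhe40, 1.78-fold) and 5 fell, with Nr1d1 at 0.534-fold. The share that rose was 58.8% in the EGF receptor list and 60.0% in the p53 list, and the share that fell was 29.4% in the clock list and 27.3% in the Sgk1 list.

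Between Scl-Ab and vehicle these lists gave fewer calls, as did all tested genes, with 2.64% called higher and 4.80% lower. Of the EGF receptor genes Erbb2 rose and Spry4 and Lrig1 fell, of the p53 targets Pmaip1 fell to 0.666-fold (adjusted p = 0.00589), and of the immediate early genes Egr3 and Junb rose, 1.91-fold and 1.47-fold. No fasting and PPAR target was called (none had an unadjusted p under 0.05), and no gene of the Sgk1 list (1 had). Clock genes moved most often, with 6 of 17 higher and 4 lower (35.3% and 23.5%). Dbp was 4.63-fold and Per3 3.44-fold higher, and Arntl 0.261-fold and Npas2 0.326-fold of vehicle.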

How the data were processed

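Stranded mRNA libraries of 29 aortic arches were sequenced. Each deposited file gives 1 value per gene for 1 library in the authors' unit, FPKQ, not spelled out in the file headers. The deposited values behave as FPKM scaled to a common upper quantile: their 85th percentile was 6.99 to 7.30 in every library, and steps of whole fragments held for 75.7 to 79.0% of low values (tolerance 0.05). Total reads are unknown, so no count model was used. The build GRCm38 and the tool DESeq2 1.10.1 are named, per the submitters' processing notes, without a role. Aligner and counting: not given in the sources used here.

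Groups and numbers came from the titles and treatment labels. Genes reaching 1 in 9 or more libraries entered limma 3.58.1 (R 4.3.3; trend, robust) on log2(value + 1), with 1 mean per group, all 29 libraries and Benjamini-Hochberg adjustment over all 13510 genes. The 9 genes, the lists and the tests were chosen with earlier results of these data known. Listed genes are named if they passed, smallest p first, and the 10 genes most like Fkbp5 by r; Per1, Hif3a, Foxo1, Mt1, Mt2 and Nr3c1 were added after their values were seen. Relations used 100000 permutations, two-sided. Positions are from the GENCODE annotation of GRCm38 and promoter sequences from RefSeq. The fit was tested on simulated data. Alternatives changed the pseudocount, filter, scaling, covariates and libraries. Replicates are separate libraries, and p-values measure the spread between them.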

Additional observations from a re-analysis of the deposited data

Results flagged for a closer look

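In 17 of 60 combinations of a gene, or the clock index, and a group, 1 library stood further from the others than Dixon's 95% limit allows. Chance alone flags about 1 in 20 groups if values are normally distributed, and gene values were not log-transformed here. In 15 of the 17 the library was Scl-Ab 10. Since 7 of these are genes of the set, from which that library was named, and 8 are genes picked for following Fkbp5, the number cannot be read against chance. Among the 9 genes it stood at 157.26 for Fkbp5 (the next Scl-Ab value was 15.495), 44.811 for Zbtb16 (4.8421), 146.8 for Tsc22d3 (33.315), 90.976 for Klf9 (49.27), 75.261 for Errfi1 (27.225), 82.389 for Cdkn1a (49.717) and 29.206 for Fam107a (2.7777). Among the genes most like Fkbp5 it stood at 27.009 for Map3k6 (11.01), 9.5092 for Tnfrsf21 (4.5548), 21.902 for Limd1 (13.911), 63.946 for Bcl2l1 (33.194), 25.488 for Foxo3 (14.452), 56.893 for Klf15 (25.324), 30.736 for Cdc37l1 (22.736) and 7.2223 for Stc2 (3.0288).

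The other 2 combinations were WT 20, at 59.752 for Tsc22d3 (the next WT value was 28.068) and 142.03 for Errfi1 (42.246). Sgk1 and Pdk4 had no such library in any group, and no vehicle library was marked for any of the 9 genes.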

How the results depend on the processing

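No direction reversed for a called result. Of the 9 genes, 8 were called in vehicle against WT, and 2 with the clock index as a covariate. With that covariate 2367 of 13510 tested genes were called higher and 3521 lower. In Scl-Ab against WT 1 of the 9 was called, and 2 with the clock index, with equal totals or with only the groups compared. Between Scl-Ab and vehicle the 1005 calls became 1576 with the adipocyte level as a covariate, 3 with the clock index (0 of the 9 genes) and 367 with equal totals. They became 447 without the filter (3 of the 9) and 577 without the 4 libraries that have 1 as second code digit. With only the groups compared they became 309. The title code range was a covariate in the ApoE KO libraries alone, so its 348 calls stand against those 309. The median r within groups was 0.550 by Spearman correlation and 0.711 in WT alone; 4 splits added after seeing the data gave 0.741 in vehicle, 0.708 in Scl-Ab, 0.130 in Scl-Ab without replicate 10 and 0.215 in WT without 20, 21 and 23. The cause of these shifts was not tested.

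Leaving out 1 library at a time gave 7316 to 8448 calls for the ApoE KO mean against WT (3 to 5 of the 9 genes), 6850 to 7663 for vehicle against WT (6 to 8), 6382 to 7674 for Scl-Ab against WT (1 to 2), 547 to 1223 for Scl-Ab against vehicle (4 to 7), and a median r of 0.561 to 0.675. Scl-Ab against vehicle fell by more than 1.5 times without vehicle 2 (547), vehicle 5 (628) or vehicle 6 (607). Library numbers occur once, but 8 endings of the unexplained title codes occur in both ApoE KO groups. Whether these endings pair the libraries is not given in the labels. Deviations correlated above 0.1 in 2 of 8 pairs, and 2 of 8 Scl-Ab libraries correlated best with their own code. So few pairs cannot show or exclude a pairing. With the ending as a replicate block, added after seeing the data, 7 genes (0 of the 9) were called between Scl-Ab and vehicle, against 180 (3 of the 9) in the same 16 libraries without the block. The search for the receptor element in wider windows was not run, since no genome sequence was used here, and limiting the fit to the groups compared gives no separate value for the ApoE KO mean. Depth limits no call: the lowest value of the 9 genes rested on about 95.9 fragments.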
